A study of Mus musculus with 12 samples.

Results

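Gm2897, Gm10409, Gm3002 and Gm3383 are 4 of the 24062 genes in the count table of this study, and all 4 are predicted genes on mouse chromosome 14 that belong to the takusan family. They were chosen from the measured values, because their counts were higher in Pias3-/- than in Pias3+/+ retina, and they are described in all 12 libraries at both ages. The difference between genotypes is therefore what selected them, and it is given below as values with errors and without a test. The choice used no numeric threshold, so no genes stand just inside or just outside it.

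Retinas of Pias3+/+ and Pias3-/- mice, taken at postnatal day 21 (P21) or at 18 months, were sequenced in 3 libraries per genotype and age, each made from 2 retinas. All 12 samples carry the strain label C57Bl6/J. The Pias3-/- mice lack exons 2 to 5 of Pias3, which encodes an E3 ligase that attaches SUMO to transcription factors. The allele was made by flanking these exons with LoxP sites in embryonic stem cells, removing the neo cassette with Actin-Flp and backcrossing to C57BL/6J. The deletion became germline after Rx-Cre, intended for retina and forebrain, recombined in oocytes, so the exons are missing in every tissue and a difference cannot be assigned to 1 retinal cell type. Mice of either sex were used, and whether wild-type animals were littermates is not given in the sources used here.

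Takusan genes form a large, rodent-specific family of near-identical copies. The family arose from duplication of a gene related to the N-terminal part of Dlg5, a membrane-associated scaffold protein. In neurons, alpha-takusan proteins are known to bind PSD-95, the product of Dlg4, and to affect its clustering and the activity of glutamatergic synapses. Copies that are this alike are hard to tell apart with short reads, so a count for 1 gene may hold reads from another.

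The 4 genes lie within the first 6 Mb of chromosome 14 in mm10, and the count table gives the intervals over which reads were counted. Gm2897 has 7 intervals from 3049285 to 3076838 on the plus strand. Gm3002 has 5 intervals from 3814913 to 3830681, also on the plus strand. Gm10409 and Gm3383 each combine 2 copies in 1 row. The copies of Gm10409 run from 3412614 to 3433857 and from 3652030 to 3673272 on the plus strand, and those of Gm3383 from 5438070 to 5455448 and from 5790561 to 5807939 on the minus strand. GENCODE M21 annotates all 4 as protein coding. RefSeq annotates Gm2897 and Gm3383 as protein coding and Gm10409 and Gm3002 as transcribed pseudogenes.

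The family resemblance is clearest in a pair of short coding exons, one of 132 bases and the other of 183 bases. The 132-base exon is printed here because it is identical in Gm2897 (chr14:3071209-3071340, plus strand), Gm3002 (chr14:3826677-3826808, plus strand) and Gm3383 (chr14:5796055-5796186, minus strand). Gm10409 (chr14:3429184-3429315, plus strand) differs from them at 1 base. Gm10408 (chr14:3451239-3451370, plus strand), a relative whose counts were not higher in Pias3-/- retina, differs at 2 bases, and Gm5795 (chr14:3190297-3190428, plus strand), a relative whose counts were higher, differs at 10. Capitals mark bases that differ from Gm2897, and sequences are 5′ to 3′ from GENCODE M21 transcripts.
Gm2897: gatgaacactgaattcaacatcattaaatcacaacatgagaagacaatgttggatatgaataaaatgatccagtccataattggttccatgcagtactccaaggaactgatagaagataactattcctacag
Gm10409: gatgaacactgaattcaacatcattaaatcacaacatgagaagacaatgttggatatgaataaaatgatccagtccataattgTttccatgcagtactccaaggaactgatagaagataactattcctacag
Gm10408: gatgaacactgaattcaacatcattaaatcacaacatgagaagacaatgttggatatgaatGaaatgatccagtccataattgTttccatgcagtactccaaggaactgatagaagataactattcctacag
Gm5795: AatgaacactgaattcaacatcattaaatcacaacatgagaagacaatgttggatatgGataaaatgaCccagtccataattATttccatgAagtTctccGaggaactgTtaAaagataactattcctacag

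The 183-base exon follows next in each transcript and is printed because it tells all 4 genes apart. Relative to Gm2897 (chr14:3072016-3072198, plus strand), it differs at 1 base in Gm3383 (chr14:5795197-5795379, minus strand), at 4 bases in Gm3002 (chr14:3827485-3827667, plus strand) and at 6 bases in Gm10409 (chr14:3429992-3430174, plus strand). Gm3002 and Gm10409 differ from each other at 2 bases. Capitals again mark differences from Gm2897.
Gm2897: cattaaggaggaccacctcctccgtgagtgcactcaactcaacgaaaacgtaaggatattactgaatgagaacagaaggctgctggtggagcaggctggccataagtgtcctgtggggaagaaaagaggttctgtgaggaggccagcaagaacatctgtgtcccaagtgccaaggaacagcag
Gm3383: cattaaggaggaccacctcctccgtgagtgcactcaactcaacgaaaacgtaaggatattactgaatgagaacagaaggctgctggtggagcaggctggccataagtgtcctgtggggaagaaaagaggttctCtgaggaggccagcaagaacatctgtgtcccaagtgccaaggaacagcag
Gm3002: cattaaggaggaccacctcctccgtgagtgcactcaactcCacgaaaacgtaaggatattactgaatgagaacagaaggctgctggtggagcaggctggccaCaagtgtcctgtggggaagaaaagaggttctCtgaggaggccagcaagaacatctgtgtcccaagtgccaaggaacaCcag
Gm10409: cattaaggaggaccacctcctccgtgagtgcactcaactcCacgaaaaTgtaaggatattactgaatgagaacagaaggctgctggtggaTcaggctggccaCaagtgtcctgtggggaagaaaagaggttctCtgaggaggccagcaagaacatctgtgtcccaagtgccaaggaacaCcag

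A read of 100 bases from these genes often has no unique origin. Of all 100-base words in GENCODE M21 transcripts of Gm10409, 100% also occur in transcripts of another gene. The share was 92.9% for Gm3383, 89.9% for Gm3002 and 77.6% for Gm2897, so among the GENCODE transcripts of the 4 genes those of Gm2897 have the largest share of words found in no other gene. Bases counted for Gm3002 outside GENCODE exons were not compared. The rows of Gm10409 and Gm3383 each hold 2 copies, and exons that GENCODE assigns to Gm3020 lie within the second copy counted for Gm10409. A word shared with such a gene can still belong to the same row, so these shares describe GENCODE genes rather than rows. Among the 4 genes, Gm10409 and Gm3002 were the closest pair, with 55.3% of the 100-base words of Gm10409 present in Gm3002, whereas 5.78% were present in Gm3383. In GENCODE, 106 genes, these 4 included, share at least 100 words of 31 bases with at least 1 of them. All 106 lie on chromosome 14, and the gene next below the threshold shares 11 words. Of the 106, 20 are rows of the count table.

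The relation to Dlg5 is visible in exon structure more than in sequence. Exons 3, 4 and 5 of a Dlg5 transcript are 163, 144 and 184 bases long, and consecutive counted intervals of 163, 132 and 183 bases occur in Gm2897, Gm10409 and Gm3383. In translated comparison, the transcript of Gm3383 matched Dlg5 over 80 codons with 27.5% identity. Dlg5 itself lies on chromosome 14 from 24133953 to 24245920.

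**Figure D1:**
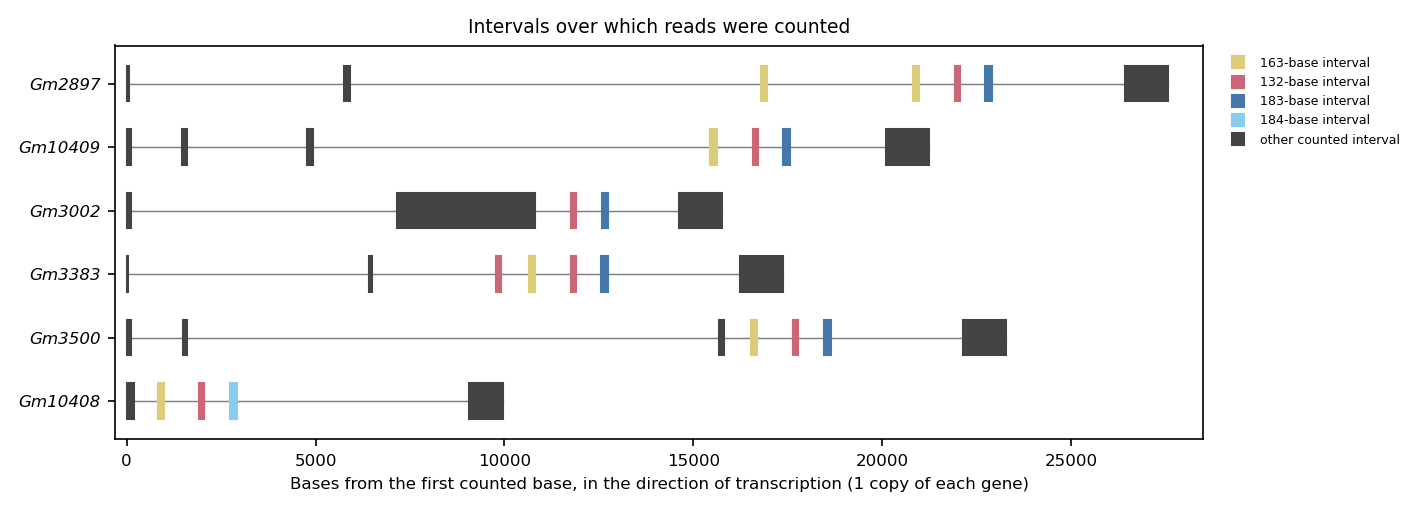
Counted intervals of the 4 genes and of 2 relatives, Gm3500 and Gm10408, drawn to scale as bases from the first counted base in the direction of transcription, with 1 copy per gene. The 132-base and 183-base intervals follow each other in all 4 genes, Gm10408 carries a 184-base interval instead, and Gm3002 alone has a long interval, of 3652 bases, ahead of them.

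Gm3002 differs from the other 3 in what was counted. A counted interval of 3652 bases (chr14:3822072-3825723), contains 3 GENCODE exons, and 3226 of its bases lie outside them. These bases are 61.9% of the 5215 bases counted for Gm3002. Gm10409 shares 12 intervals, together 1696 bases, exactly with the row Gm3020, which had 0 counts in every library. These are all 12 intervals of Gm3020, and both printed exons of Gm10409 lie in shared intervals. Gm3317 and Gm3488, also at 0 in every library, share all 10 of their intervals with each other. Whether reads on shared intervals were counted for any row is not given in the sources used here. The length over which Gm10409 could gain counts is therefore not known.

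RefSeq promoter windows (GRCm38.p6, 250 bases before to 50 after the start) were present for 2 of the 4 genes. The window of Gm2897 is printed beside that of Gm3558, a relative that was also higher in Pias3-/- retina at P21, because they share long identical blocks even though the genes lie on opposite strands and over 4 Mb apart. Capitals mark bases inside words of 15 bases found in both windows, 197 bases in each. The windows are chr14:3049035-3049334 on the plus strand for Gm2897 and chr14:7568517-7568816 on the minus strand for Gm3558.
Gm2897: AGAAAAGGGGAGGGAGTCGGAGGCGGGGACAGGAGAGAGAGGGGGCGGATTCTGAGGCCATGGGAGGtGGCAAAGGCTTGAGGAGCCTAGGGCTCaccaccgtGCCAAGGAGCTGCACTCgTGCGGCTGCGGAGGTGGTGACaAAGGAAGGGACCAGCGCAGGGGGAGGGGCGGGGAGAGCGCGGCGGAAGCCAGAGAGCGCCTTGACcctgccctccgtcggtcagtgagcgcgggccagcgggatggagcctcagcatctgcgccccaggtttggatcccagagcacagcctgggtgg
Gm3558: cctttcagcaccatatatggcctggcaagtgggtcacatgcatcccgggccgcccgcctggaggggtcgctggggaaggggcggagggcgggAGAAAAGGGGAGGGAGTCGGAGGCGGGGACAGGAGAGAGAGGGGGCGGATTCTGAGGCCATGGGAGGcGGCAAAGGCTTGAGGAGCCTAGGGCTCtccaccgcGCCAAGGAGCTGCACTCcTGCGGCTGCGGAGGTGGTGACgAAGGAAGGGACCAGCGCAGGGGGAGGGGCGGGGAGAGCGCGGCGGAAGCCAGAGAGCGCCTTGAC

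The Gm2897 window has 68.0% G and C, against a median of 52.7% over the 32851 windows of the table, and 12.6% of windows are at least as rich. Apart from Gm2897 itself, 5 windows share at least 50 of its 15-base words. They belong to Gm3248 (a pair of windows), Gm38690, Gm3558 and D830030K20Rik. The window of Gm3558 shares 127, and a window of D830030K20Rik, a relative with a negative fold change that was not called, shares 104. Neither window of Gm3383 shares any.

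The libraries held 11607155 to 25622505 counts, and a floor of 3 counts per library corresponded to between 0.122 and 0.261 CPM (counts scaled by the TMM-normalised library total). Intervals and floors of this kind cover counting error only. Pias3, the deleted gene, had a log2 fold change of -0.71 (SE 0.109, FDR 0.0346) at P21 and -0.84 (SE 0.080, FDR 0.00458) at 18 months by the quasi-likelihood test of edgeR, Benjamini-Hochberg adjusted, and every Pias3-/- library lay below every Pias3+/+ library. Its counts cover the whole gene, including the exons that remain. Summed CPM of 6 rod genes ran from 50337 to 52819 in P21 Pias3+/+ and from 36695 to 38340 in P21 Pias3-/- retina, with none of the 6 at 0. Summed CPM of 5 pigment epithelium genes ran from 202 to 265 in P21 Pias3+/+ and from 35.2 to 217 in P21 Pias3-/- retina. At 18 months, Pias3-/- replicate 2 held 5311 CPM of 5 lens genes, against at most 31.5 CPM in Pias3+/+ libraries. Xist was between 1832 and 2695 CPM in the 3 Pias3+/+ libraries at 18 months and at most 0.527 CPM in the 3 Pias3-/- libraries, so sex and genotype cannot be told apart at that age.

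At P21, Gm2897 had 93, 75 and 98 counts in the Pias3+/+ libraries and 721, 487 and 1034 counts in the Pias3-/- libraries. In CPM these were 5.19, 5.16 and 5.23 against 39.2, 30.6 and 44.7. The wild-type libraries were nearly equal to each other, and the lowest knockout library stood far above them. Mean CPM ± SD (n = 3) was 5.19 ± 0.036 for Pias3+/+ against 38.2 ± 7.10 for Pias3-/-, and log2 fold change was 2.87 (SE 0.159). At 18 months, Gm2897 had 6.36, 8.02 and 8.001 CPM in Pias3+/+ libraries and 19.4, 22.4 and 22.6 CPM in Pias3-/- libraries, again without overlap. The log2 fold change at 18 months was 1.52 (SE 0.135).

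Gm10409, whose 100-base words all occur in another GENCODE gene, had 46, 36 and 37 counts in P21 Pias3+/+ libraries. It had 279, 198 and 535 counts in P21 Pias3-/- libraries. This was 2.57, 2.48 and 1.97 CPM against 15.2, 12.5 and 23.1 CPM. Knockout replicate 3 was the highest of the 12 libraries, and the P21 genotypes did not overlap. Mean CPM ± SD (n = 3) was 2.34 ± 0.320 against 16.9 ± 5.56, and the fitted log2 fold change was 2.86 (SE 0.266). At 18 months the values were 3.12, 2.93 and 3.22 CPM in Pias3+/+ against 9.96, 9.05 and 10.9 CPM in Pias3-/- libraries. All 3 knockout libraries were above the wild type, and the log2 fold change was 1.68 (SE 0.148).

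Gm3002 showed a smaller proportional difference than Gm2897 and Gm10409 at both ages. It had 159, 135 and 152 counts in P21 Pias3+/+ libraries and 664, 501 and 672 counts in P21 Pias3-/- libraries. In CPM these were 8.88, 9.28 and 8.11 against 36.1, 31.5 and 29.1. Knockout replicate 3, highest for the other 3 genes, was the lowest knockout library here, and the genotypes did not overlap. Mean CPM ± SD (n = 3) was 8.76 ± 0.595 against 32.2 ± 3.57, and the log2 fold change was 1.87 (SE 0.121). At 18 months, 9.89, 9.19 and 9.22 CPM in Pias3+/+ stood against 21.8, 19.8 and 20.8 CPM in Pias3-/- libraries, a log2 fold change of 1.13 (SE 0.101).

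Gm3383, whose 132-base exon equals that of Gm2897, was counted least. It had 7, 8 and 7 counts in P21 Pias3+/+ libraries and 50, 28 and 84 counts in P21 Pias3-/- libraries. At 18 months it had 10, 10 and 2 counts in Pias3+/+ and 29, 35 and 24 counts in Pias3-/- libraries. The genotypes did not overlap at either age, although the counts in wild-type libraries are small. In CPM the P21 means were 0.438 ± 0.097 and 2.70 ± 0.936, and the 18-month means were 0.388 ± 0.206 and 1.53 ± 0.331 (SD, n = 3 each). Without a filter on low values, its log2 fold change was 2.65 (SE 0.352) at P21 and 1.88 (SE 0.390) at 18 months.

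**Figure D2:**
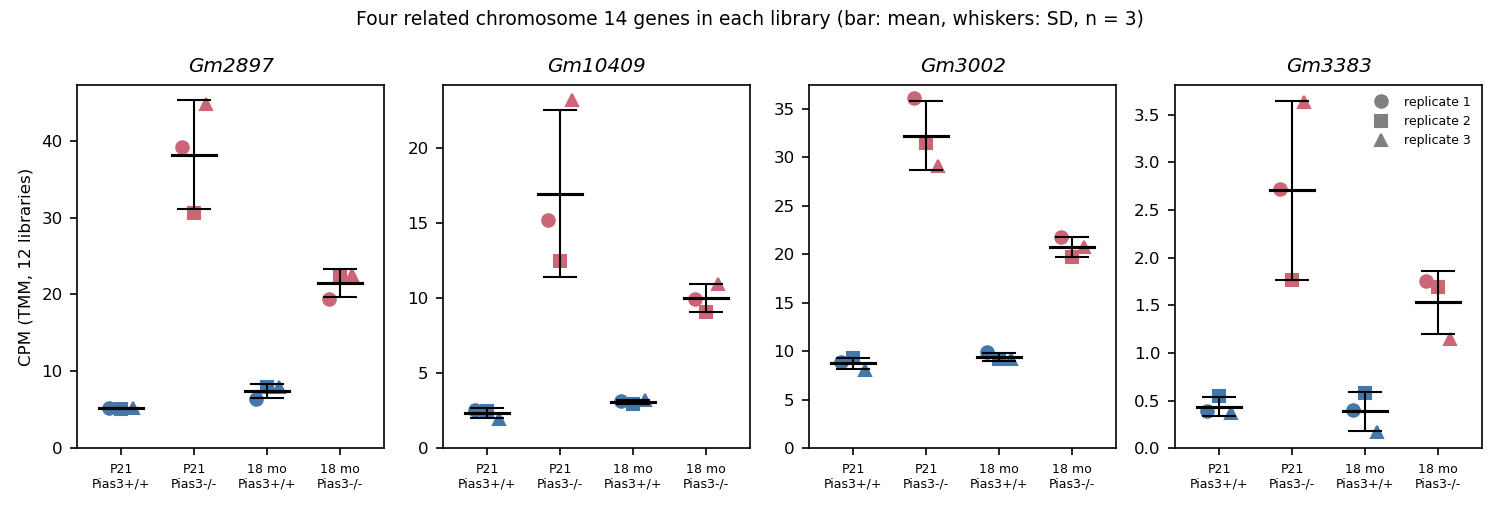
CPM of each gene in each library (points, shaped by replicate), with the group mean (bar) and SD (whiskers), n = 3 per group, and a separate scale from 0 in each panel. Every Pias3-/- library lies above every Pias3+/+ library of its age, and the P21 Pias3-/- libraries are the highest, from 30.6 to 44.7 CPM for Gm2897.

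The absence of overlap for the 4 genes is a consequence of how they were chosen and is read against the whole table. All Pias3-/- libraries lay above all Pias3+/+ libraries for 10.9% of the 19019 genes with a count at P21, and for 7.22% of the 19019 genes with a count at 18 months. Genes were tested where FPKM (CPM divided by counted length in kilobases) reached at least 2 in at least 1 sample of an age. Of the 4 genes, 3 passed at each age, and Gm3383 did not, with a highest P21 value of 0.967 FPKM. At both ages, Gm10409 and Gm3002 passed only through their knockout libraries, while Gm2897 also passed in wild type. The highest wild-type values of Gm10409 and Gm3002 were 0.645 and 1.78 FPKM at P21 and 0.808 and 1.90 FPKM at 18 months.

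With the lengths of the count table, levels per counted length put Gm2897 first in every group, whereas in CPM Gm3002 was first in wild type. In P21 Pias3+/+ retina, the highest level was that of Gm2897 at 2.63 ± 0.018 FPKM, followed by Gm3002 at 1.68 ± 0.114, Gm10409 at 0.588 ± 0.080 and Gm3383 at 0.117 ± 0.026 FPKM (SD, n = 3 each). No neighbours in this order overlapped. In P21 Pias3-/- retina the order was the same, with 19.3 ± 3.59 FPKM for Gm2897, 6.18 ± 0.685 for Gm3002, 4.25 ± 1.40 for Gm10409 and 0.719 ± 0.249 for Gm3383. There, Gm3002 (at least 5.57 FPKM) and Gm10409 (at most 5.82 FPKM) overlapped and so did not differ beyond their spread. With the lengths of the count table, the order at 18 months was unchanged in both genotypes, with 10.8 ± 0.914 FPKM for Gm2897 and 3.98 ± 0.194 FPKM for Gm3002 in Pias3-/- retina. The lengths used for Gm10409 (3980 bases) and Gm3383 (3760 bases) are those of both copies, and 1 copy is 1990 and 1880 bases long, respectively. The order of Gm3002 and Gm10409 in knockout retina depends on this length. With the length of 1 copy, Gm10409 was at 8.50 ± 2.79 FPKM in P21 Pias3-/- retina, above the mean of Gm3002 but overlapping it. At 18 months it was then at 5.01 ± 0.470 FPKM in Pias3-/- retina, above Gm3002 without overlap, while in Pias3+/+ retina Gm3002 remained the higher at both ages. Gm2897 was first and Gm3383 last with either of these lengths. No length left out the 3226 bases of Gm3002 outside GENCODE exons, or the 1696 bases that Gm10409 shares with Gm3020. A shorter length would raise the FPKM of Gm3002 and Gm10409, so the order of Gm2897, Gm3002 and Gm10409 holds only for the lengths used.

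The sum of the 4 genes does not depend on how counted reads were divided among them, but it still depends on whether reads with several origins were counted and on reads assigned to other relatives. The sum was 17.0, 17.5 and 15.7 CPM in P21 Pias3+/+ and 93.2, 76.4 and 100.6 CPM in P21 Pias3-/- libraries. At 18 months it was 19.8, 20.7 and 20.6 CPM in Pias3+/+ and 52.9, 52.9 and 55.4 CPM in Pias3-/- libraries. The genotypes were well separated at both ages, and the 18-month knockout libraries were close to each other. Fitted as 1 row, the sum had a log2 fold change of 2.42 (SE 0.123) at P21 and 1.39 (SE 0.072) at 18 months.

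The composition of the sum differed between genotypes at P21, and for Gm3002 and Gm10409 also at 18 months. Gm3002 made up 52.3 ± 0.744% of the summed counts in P21 Pias3+/+ retina and 36.3 ± 6.53% in P21 Pias3-/- retina (SD, n = 3 each). Gm2897 went the other way, from 31.1 ± 1.98% to 42.2 ± 2.18%. In each P21 knockout library the share of Gm3002 was below that of every wild-type library, with the lowest, 28.9%, in replicate 3, where Gm10409 reached 23.0%. At 18 months the share of Gm3002 was 46.4 ± 3.16% in Pias3+/+ and 38.7 ± 2.19% in Pias3-/- retina, without overlap, while the share of Gm2897 overlapped between genotypes (36.6 ± 3.80% against 39.9 ± 2.94%). The share of Gm10409 did not overlap between genotypes at either age, with 13.9 ± 1.26% in Pias3+/+ against 18.5 ± 3.88% in Pias3-/- retina at P21 and 15.2 ± 0.911% against 18.6 ± 1.32% at 18 months. Gm3383 stayed between 0.844% and 3.61% of the summed counts in the 12 libraries.

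**Figure D3:**
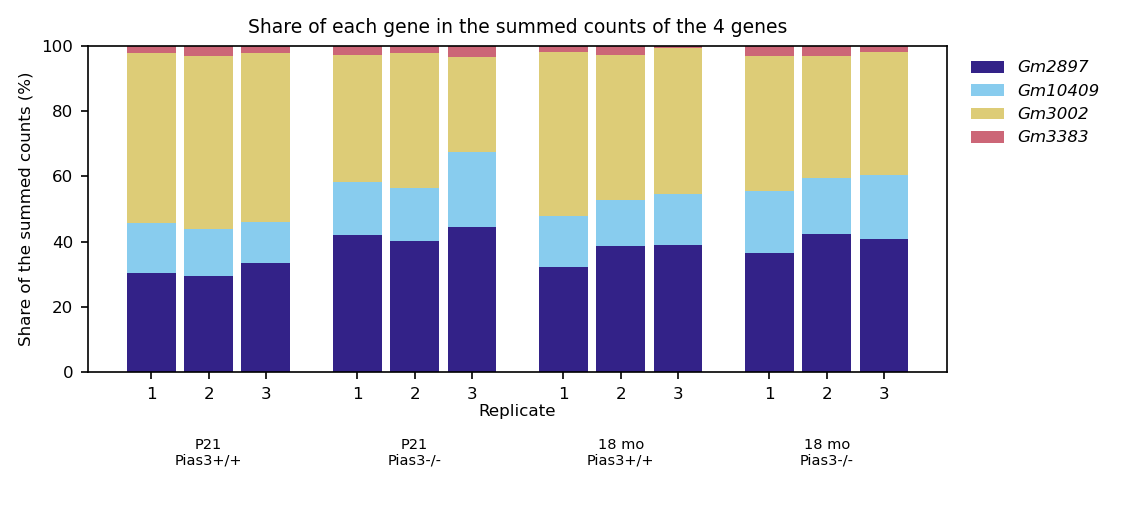
Share of each gene in the summed counts of the 4 genes, in percent, for the 3 libraries of each group. Gm3002 takes over 44% in every Pias3+/+ library and at most 41.3% in every Pias3-/- library.

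The knockout levels were lower at 18 months than at P21, and the wild-type levels were similar or higher. Mean CPM in Pias3-/- retina was higher at P21 than at 18 months by 1.78 times for Gm2897, 1.70 times for Gm10409, 1.55 times for Gm3002 and 1.77 times for Gm3383, without overlap between the ages for any of the 4. In Pias3+/+ retina, the 18-month mean was 1.44 times the P21 mean for Gm2897 and 1.32 times for Gm10409, without overlap, and 1.08 times for Gm3002 and 0.886 times for Gm3383, with overlap. The log2 fold change between genotypes was accordingly smaller at 18 months. The 18-month value minus the P21 value was -1.35 (SE 0.205) for Gm2897, -1.18 (SE 0.306) for Gm10409 and -0.75 (SE 0.143) for Gm3002 in the fit of all 12 libraries. For Gm3383, in the fit without the filter on low values, it was -0.76 (SE 0.558), the largest SE of the 4. This difference uses the contrast that selected the genes and carries no test. Across all genes, 26 of 12448, or 0.209%, had an interaction of genotype and age at an FDR of at most 0.05. The share of all genes without overlap between the ages was not determined. Xist differed between the ages too, at 683 CPM in P21 Pias3-/- replicate 3 against at most 0.527 CPM in 18-month Pias3-/- libraries. In Pias3+/+ retina it was at 0.344 CPM in P21 replicate 2 and at 1832 CPM or more at 18 months. The part of sex in the age differences was not tested.

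The differences were about as large without the library that stood apart. Without 18-month Pias3-/- replicate 2, the library high in lens genes, the 18-month log2 fold change was 1.48 for Gm2897, 1.74 for Gm10409, 1.15 for Gm3002 and 1.77 for Gm3383. At P21, Xist was at most 1.13 CPM in 1 Pias3+/+ and 2 Pias3-/- libraries. Among these 3, Gm2897 was at 5.16 CPM in the Pias3+/+ library and at 39.2 and 30.6 CPM in the Pias3-/- libraries, and Gm3002 was at 9.28 against 36.1 and 31.5 CPM. Gm10409 was at 2.48 against 15.2 and 12.5 CPM, and Gm3383 at 0.550 against 2.72 and 1.76 CPM. With 1 Pias3+/+ library these values have no spread, they use the contrast that selected the genes, and the part of sex was not tested. At 18 months no library of 1 genotype matches the other in Xist, so such a comparison could not be made. Other marker levels were separated by genotype too, namely the rod genes at P21 given above, 5 cone genes at P21 (1433 to 1469 CPM in Pias3+/+ and 1271 to 1327 CPM in Pias3-/- libraries) and 3 Müller glia genes at 18 months (3483 to 3703 against 3794 to 4326 CPM), whereas the pigment epithelium levels overlapped. Their part in the values of the 4 genes was not tested. In RNA from whole retina, more cells expressing a gene and more RNA per cell cannot be told apart.

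The count table holds 16 other rows related to the 4 genes by sequence, of which 13 had at least 1 count and 3 (Gm3020, Gm3317 and Gm3488) had 0 counts in every library. Most of the 13 were higher in Pias3-/- retina at P21, like the 4 genes. Their counts were higher in every Pias3-/- library than in every Pias3+/+ library for 10 of the 13 rows, against 10.9% of all genes with a count. All 16 had FPKM below 2 in every P21 and 18-month library, so none was tested with the filter, and they were tested in a fit without it. In that fit, 7 of the 13 rows were called higher in Pias3-/- retina at P21, against 0.268% of the 19019 genes tested, and 0 were called lower, with an unadjusted p of at most 0.05 for 1 lower row, Gm10408. Because reads of these rows may come from the 4 genes, and the reverse, this count is no independent evidence.

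Gm3500 had the highest mean CPM of the related rows. It was at 0.503, 0.550 and 0.587 CPM in P21 Pias3+/+ and at 3.92, 2.96 and 5.24 CPM in P21 Pias3-/- libraries. Knockout replicate 3 was highest, as for Gm2897, and its log2 fold change was 2.88 (SE 0.290, FDR 0.00249 by the quasi-likelihood test of edgeR, Benjamini-Hochberg adjusted). Gm5796 rose by 2.93 (SE 0.336, FDR 0.00496) by the same edgeR test. Gm10406, Gm3264 and Gm5795, the next by mean CPM among the 12 predicted genes whose first listed start is within 2 Mb of that of 1 of the 4 genes, rose by 2.42, 2.84 and 2.65 on the log2 scale. Gm3558 and Gm3696, named after their values were seen, rose by 2.20 and 3.36.

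At 18 months the related rows had smaller differences, and none was called in the same fit. The log2 fold change of Gm3500 was 1.73 (SE 0.311, FDR 0.0608), and that of Gm5796 was 1.73 (SE 0.402, FDR 0.230), both by the quasi-likelihood test of edgeR, Benjamini-Hochberg adjusted. Of the 13 rows, 8 had every Pias3-/- library above every Pias3+/+ library, against 7.22% of all genes with a count. For 2 rows, Gm10408 and D830030K20Rik, every Pias3-/- library was below every Pias3+/+ library, and the share of all genes with this is not given. In the fit, 0 of 12 rows were called, against 0.0946% of genes called higher. An unadjusted p of at most 0.05 was reached by 8 of the 12, against 8.59% of all genes in that fit. A difference between the ages was not detected for Gm3500 (interaction -1.14, FDR 0.585).

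Gm10408 and D830030K20Rik, singled out after their values were seen, were the related rows with negative fold changes at both ages. At a single age, Gm10413 (2 counts in all) at P21 and Gm5458 (28 counts in all) at 18 months were also below 0, at -0.13 (SE 1.71) and -0.48 (SE 0.948) on the log2 scale. Gm10408 was at 0.503, 0.550 and 0.373 CPM in P21 Pias3+/+ and at 0.163, 0.189 and 0.087 CPM in P21 Pias3-/- libraries. Its libraries did not overlap, but its log2 fold change of -1.70 (SE 0.507) had an FDR of 0.166 by edgeR's quasi-likelihood test. For D830030K20Rik the P21 genotypes overlapped, and the log2 fold change was -0.67 (SE 0.480, FDR 0.595 by the same edgeR test). Neither gene has a matching exon of exactly 183 bases, and their 132-base exons are 98.5% identical to that of Gm2897.

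The related rows were also listed by the presence of the 183-base exon, a listing made after seeing the values and not tested. All 5 rows with counts and a 183-base exon (Gm3500, Gm3558, Gm5796, Gm10406 and Gm3264) were called higher at P21, with log2 fold changes from 2.20 to 2.93. Over all genes in that fit, 0.268% were called higher. Of the 8 rows with counts and no 183-base exon, 2 were called higher (Gm5795 and Gm3696), while 5 had every P21 Pias3-/- library above every Pias3+/+ library. The median P21 log2 fold change was 2.84 in the 5 rows and 2.90 in the 8 rows. The other 6 of these 8 ranged from 2 to 235 counts in all 12 libraries. Gm5797, with 0 counts in all 6 Pias3+/+ libraries, had 3, 4 and 1 counts in P21 Pias3-/- libraries.

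**Figure D4:**
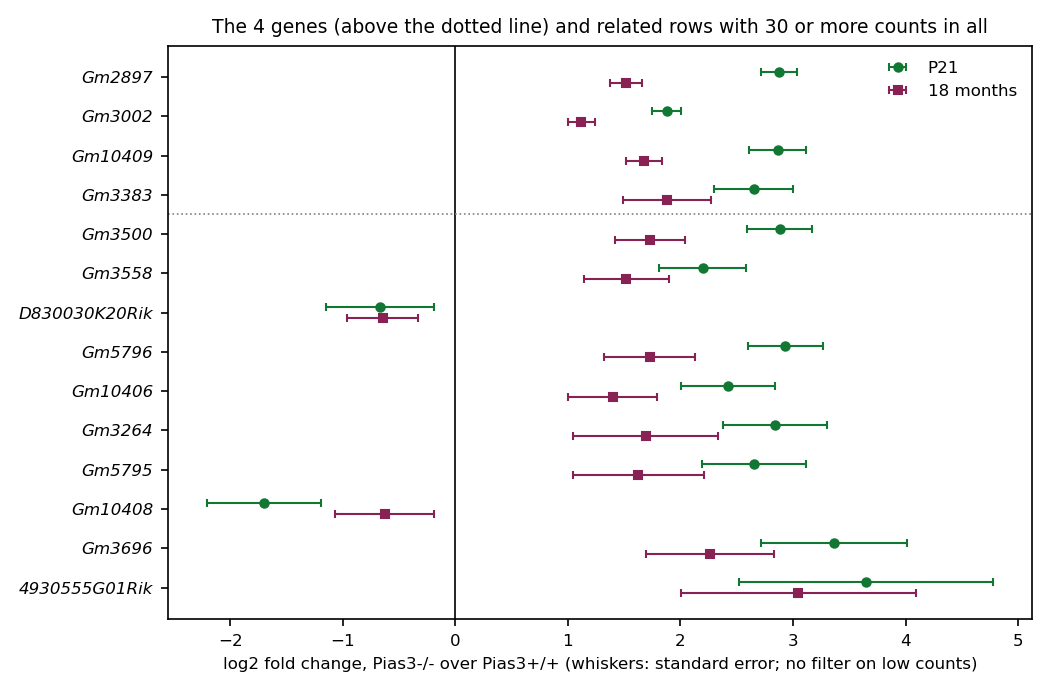
Log2 fold change of Pias3-/- over Pias3+/+ retina at P21 (circles) and at 18 months (squares), with standard errors, from fits without a filter on low values, for the 4 genes and for related rows with at least 30 counts in all. D830030K20Rik and Gm10408 lie below 0 at both ages, and the other rows lie above 0, further at P21 than at 18 months.

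Summed over the 16 related rows, the level was 3.36 to 4.30 CPM in P21 Pias3+/+ and 11.9 to 16.1 CPM in P21 Pias3-/- libraries. At 18 months it was 4.05 to 4.50 CPM and 8.29 to 9.44 CPM, respectively. The related rows together thus held far fewer counts than the 4 genes, and the genotypes did not overlap at either age. With the related rows added to the 4 genes, the log2 fold change of the sum was 2.35 (SE 0.124) at P21 and 1.34 (SE 0.070) at 18 months.

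Speer genes, a rodent family related to takusan that is expressed in testis, were close to 0 in retina. Of 14 Speer rows, 7 had a count, and the 14 rows held 62 counts in all 12 libraries together. None reached an FPKM of 2 at either age, and in the edgeR fit without the filter 0 were called, with 0 at an unadjusted p of at most 0.05. Speer7-ps1 had the highest mean CPM, with 23 counts in all and a P21 log2 fold change of 0.14 (SE 0.983). Speer5-ps1, named after its values were seen, had all 26 of its counts in P21 Pias3-/- replicate 3.

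Takusan proteins are known at the postsynaptic density, so 31 genes for postsynaptic scaffolds and glutamate receptors were examined. Of the 31, 27 were tested at each age, and 0 were called by the quasi-likelihood test of edgeR at P21 or at 18 months, against 0.818% and 0.257% of all tested genes. DESeq2's Wald test also called 0. An unadjusted p of at most 0.05 was reached by 6 of the 27 at P21 and by 1 at 18 months, where 16.8% and 9.27% of all tested genes reached it. The median log2 fold change was -0.06 at P21 and -0.07 at 18 months, beside 0.00 and 0.01 over all genes tested. At each age 19 of the 27 values were negative, beside 6035 of 12109 at P21 and 5638 of 12068 at 18 months over all genes tested. At P21 the lowest value was -0.53 and the highest 0.18, and at 18 months they were -0.29 and 0.19.

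Dlg4, which encodes PSD-95, was at 520, 514 and 651 CPM in P21 Pias3+/+ and at 398, 318 and 456 CPM in P21 Pias3-/- libraries. Its genotypes did not overlap, and its log2 fold change of -0.53 (SE 0.151) had an FDR of 0.143 by the quasi-likelihood test of edgeR, Benjamini-Hochberg adjusted. Without P21 Pias3-/- replicate 3, Dlg4 was called at -0.65 (FDR 0.0412 by the same edgeR test). At 18 months its value was -0.09 (SE 0.097), and the genotypes overlapped. Dlg5, the relative of the takusan family, had a log2 fold change of -0.13 (SE 0.071, FDR 0.423) at P21 and -0.06 (SE 0.107, FDR 0.859) at 18 months by the same edgeR test.

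Likeness to the 4 genes was measured as Pearson's r, over the 12 libraries, between log2 CPM and the mean z-score of Gm2897, Gm10409 and Gm3002, for 12445 genes that passed the FPKM filter. The libraries share genotype groups, so r mainly ranks genes by separation of the groups. The highest values were 0.946 for Gpsm3, 0.938 for Pes1, 0.936 for Setd3, 0.932 for Mrpl39 and 0.926 for Mrpl45, none of them on chromosome 14. The related rows on chromosome 14, such as Gm3500, did not pass the filter and were not ranked, so the ranking cannot place them. Gpsm3, a regulator of G-protein signalling, was at 17.4 ± 1.73 CPM in P21 Pias3+/+ against 31.6 ± 2.59 CPM in P21 Pias3-/- libraries (mean ± SD, n = 3), and at 18.4 ± 0.884 against 24.6 ± 3.39 CPM at 18 months. Pes1, which acts in ribosome biogenesis, was at 95.6 ± 4.83 and 121 ± 3.43 CPM at P21. For Setd3, an actin histidine methyltransferase, and for Mrpl39 and Mrpl45, which encode proteins of the mitochondrial ribosome, the P21 log2 fold changes were 0.19, 0.33 and 0.26, far smaller than those of the 4 genes.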

How the data were processed

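Each of the 12 samples pooled 2 retinas, with 3 samples for every combination of genotype and age. The authors made stranded libraries from RNA with an RNA integrity number above their limit, mapped paired-end reads of 100 bases to mm10 with TopHat 2.1.1 and counted them on genes with featureCounts. Its version, its annotation and its treatment of reads with several origins are not given in the sources used here. These reads matter for near-identical genes. What they deposited are unnormalised counts of reads on 24062 genes, beside the deposited gene length in bases. The deposited tables of the authors' own comparisons hold fold changes, FDR values and group means of FPKM and were not used. Totals ranged from 11607155 to 25622505 counts per library.

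Counts were tested with edgeR 4.0.16 (R 4.3.3, limma 3.58.1) by its quasi-likelihood test, with TMM normalisation and Benjamini-Hochberg adjustment, separately per age (3 against 3). A gene was tested if 1 or more of the 6 samples reached an FPKM of 2. TMM factors were computed again after filtering. Genes were called at FDR 0.05 or below if they also changed 1.5-fold or more. Standard errors are the log2 fold change divided by the square root of the F statistic. The difference between ages was fitted as an interaction over 12 libraries. Levels in CPM and FPKM were scaled over all 12 libraries, and log2 CPM used a prior count of 2. The fits were also run on simulated data, the outcome of which is not given here.

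Related genes were found by counting shared words of 31 bases between GENCODE M21 transcripts, and predicted genes (Gm and a number) whose first listed start on chromosome 14 lies within 2 Mb of that of 1 of the 4 genes were taken as neighbours. Named genes are the 4 genes, neighbours that were called or had the 5 highest mean CPM, Dlg4, Dlg5, the highest Speer row, the 5 genes most alike and Pias3. The members, lists and rules were chosen with earlier results of these data known. No test was made on the genotype difference of the 4 genes, which selected them. Alternatives were DESeq2 1.42.0 (Wald test and size factors), library size alone, no filter, edgeR's filterByExpr, a replicate block, leaving out each library, and summing members with neighbours. Summing with all relatives, and taking neighbours by the starts of all counted intervals, were added after seeing the data.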

Additional observations from a re-analysis of the deposited data

How the results depend on the processing

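The log2 fold changes of Gm2897, Gm10409, Gm3002 and Gm3383 kept their sign and moved by less than the spread between replicates in all 94 settings run for them. With each library left out in turn, Gm2897 lay between 2.75 and 3.01 (P21) and between 1.41 and 1.60 (18 months), and Gm3383, the least counted, between 2.37 and 2.88 (P21) and between 1.64 and 2.23 (18 months). The sum of the 4 lay between 2.34 and 2.53 (P21) and between 1.37 and 1.41 (18 months). Its largest shift at 18 months came with all relatives added, to 1.34, and by construction more rows were summed. With the replicate block the sum was 2.42 at P21 and 1.39 at 18 months. Replicate numbers share no stated origin, and same-numbered libraries correlated about their group means at -0.25, 0.41 and 0.59 at P21 and at 0.39, -0.10 and 0.22 at 18 months.

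Counts of called genes depended on the setting. At P21 there were 99, but 228 by DESeq2's Wald test, 65 with library size alone, 149 without the filter and 175 with the replicate block, and 6 to 340 with 1 library left out. At 18 months there were 31, but 62 by DESeq2's Wald test and 12 to 36 with 1 library left out. For the interaction there were 26, but 154 by DESeq2's Wald test and 6 to 33 with 1 library left out, and 24 with the block. Among neighbours at P21, 0 were tested with the FPKM filter, 6 were called without it and 5 with filterByExpr. Neighbours were placed by the first start listed for a row. With the starts of all counted intervals, a choice made after seeing the data, Gm3558 joined them through the second copy of Gm3383, and 7 were called without the filter. Among synaptic genes at P21, 0 were called, and 0 to 1 with 1 library left out. The cause of these shifts was not tested, except that the neighbours could be called only where more genes were tested. Low counts limit Gm3383 and the related rows, and the shared sequence limits what any single row can show.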
